A study of Homo sapiens with 2 samples.

Results

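The telomerase and shelterin genes are 10 genes of 57736 in the deposited tables, chosen by symbol: TERT, TERC, DKC1, WRAP53, TERF1, TERF2, TERF2IP, TINF2, POT1 and ACD. Each symbol matched 1 Ensembl gene identifier with 1 row, and TERC, which could have lacked one, had a row too. Their RNA was measured in HEK293T, an established human line derived from embryonic kidney and transformed by adenovirus DNA, to which the large T antigen of SV40 was added. The cells were wild type, untreated and grown in DMEM with serum, and 2 libraries of their poly(A)+ RNA formed a single group. The libraries held 10593491 and 10104118 estimated counts in replicates 1 and 2. With 1 group, no condition can be compared. The labels do not say that the replicates came from separate cultures, so the spread between them may be technical. In bulk RNA, fewer cells with a transcript and less of it per cell cannot be told apart.

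Chromosome ends consist of repeated TTAGGG DNA, which shortens at each replication unless telomerase extends it. Telomerase joins the reverse transcriptase TERT to the RNA TERC, whose template region it copies. The H/ACA protein dyskerin, made from DKC1, stabilises TERC, and WRAP53, also called TCAB1, directs the RNA to Cajal bodies. Shelterin covers the repeats: TERF1 and TERF2 (TRF1 and TRF2) bind double-stranded repeats, TERF2IP (RAP1) binds TERF2, and TINF2 (TIN2) bridges these proteins to ACD (TPP1). ACD in turn holds POT1, which binds the single-stranded end.

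TERC is shown by sequence because the finding on the RNA component concerns a gene that makes no protein, and its template is what telomerase copies. The stretch below is bases 6 to 96 of the 541 nt transcript, 5′ to 3′, at chr3:169482753-169482843 of GRCh37, minus strand, read from the reference genome and not from the libraries. Capitals mark the 11 nt template at bases 46 to 56, which is complementary to the telomeric repeat.
TERC: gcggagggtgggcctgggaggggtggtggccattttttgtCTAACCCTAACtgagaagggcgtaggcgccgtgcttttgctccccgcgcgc

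All 10 genes were detected, meaning at least 1 TPM (a level per transcript length, set to a common library total) in both replicates, against 27.7% of all genes and 63.7% of protein-coding genes. Their mean TPM ran from 5.07 for TERT to 224 for DKC1, with a median of 31.7 over the 10 genes, beside a median of 21.2 over detected protein-coding genes. The TERT level was above only 17.5% of the 12345 detected protein-coding genes and the DKC1 level was above 96.4%.

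**Figure D1:**
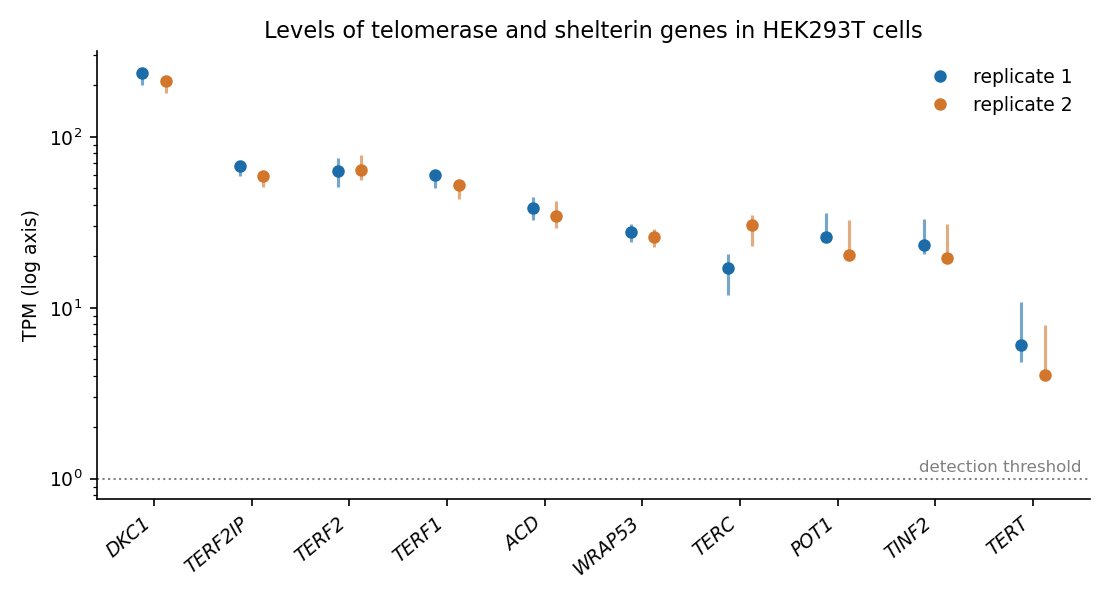
TPM on a log axis of the 10 genes in each replicate (points), with the interval that RSEM deposited for each value (bars), in order of mean TPM. DKC1 (mean 224) stands above the rest and TERT (mean 5.07) below, and the dotted line marks the 1 TPM threshold.

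The telomerase subunits spanned the widest range. TERT, at chr5:1253262-1295183 on the minus strand, received 115 and 105 counts in replicates 1 and 2. The exact 95% Poisson interval of the first count was 94.9 to 138, which held the second count. Such intervals cover counting error only. In TPM, TERT was 6.09 and 4.04 (5.07 ± 1.45, SD, n = 2), the lowest level of the 10 genes in both replicates. DKC1, at chrX:153991017-154005964 on the plus strand, received 2276 and 2030 counts, or 236 and 212 TPM (224 ± 17.0, SD, n = 2). In TPM, DKC1 was 38.8 and 52.5 times TERT (mean ratio 45.7 ± 9.72, SD, n = 2), and neither the replicates nor the RSEM intervals of these genes overlapped.

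WRAP53, at chr17:7589389-7606820 on the plus strand, received 387 and 366 counts after rounding and stood at 27.9 and 26.1 TPM (27.0 ± 1.28, SD, n = 2). Its level was close to the middle of detected protein-coding genes, 57.3% of which lay below it. TERC, at chr3:169482308-169482848 on the minus strand, received 50 and 86 counts, or 17.2 and 30.7 TPM (23.95 ± 9.56, SD, n = 2). Mature TERC is mostly not polyadenylated, so its value counts the RNA that came through poly(A) selection and should not be read as its amount beside the messenger RNAs. RSEM used a TERC length of 438 nt from a transcript that the annotation used here does not hold. By its TPM, TERC was above 95.5% of the 1584 detected lncRNA genes. TERC over TERT in TPM was 2.82 in replicate 1 and 7.60 in replicate 2, a ratio that moved with both genes. Poly(A) selection and the 438 nt length limit both comparisons, so neither measures the amount of TERC in the cells.

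In the double-strand binding arm of shelterin, TERF1 (chr8:73921091-73960358, plus strand) stood at 60.1 and 51.95 TPM (56.0 ± 5.76, SD, n = 2). TERF2 (chr16:69389470-69442474, minus strand) stood at 62.8 and 63.7 TPM (63.2 ± 0.615, SD, n = 2). TERF2IP (chr16:75681671-75795770, plus strand) stood at 67.8 and 59.1 TPM (63.5 ± 6.18, SD, n = 2). TERF2 and its partner TERF2IP had levels that overlapped between replicates, with TPM ratios of 0.926 and 1.08 (mean 1.00 ± 0.107, SD, n = 2). That ratio depends on the length used: its log2 value was −0.0013 in TPM and −0.85 with counts per kb of the longest annotated transcript, where TERF2 was lower. All 3 genes lay above at least 78.1% of the detected protein-coding genes.

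The bridge and the single-strand binding arm were lower. ACD (chr16:67691415-67694713, minus strand) stood at 38.2 and 34.4 TPM (36.3 ± 2.64, SD, n = 2). POT1 (chr7:124462440-124570037, minus strand) stood at 25.9 and 20.4 TPM (23.2 ± 3.86, SD, n = 2). TINF2 (chr14:24707492-24711869, minus strand) stood at 23.2 and 19.6 TPM (21.4 ± 2.52, SD, n = 2). TINF2, the hub that joins both arms, had the lowest mean TPM of the 6 shelterin genes, but it overlapped POT1 in replicates and intervals. With counts per kb of the longest annotated transcript, POT1 was the lower, at 6.59 against 9.12.

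Ratios between genes whose proteins bind each other were formed within each replicate, in TPM. TERF1 was 2.59 and 2.65 times TINF2 (mean 2.62 ± 0.0394, SD, n = 2), and neither their replicates nor their intervals overlapped. This ratio also depends on the unit: its log2 value was 1.39 in TPM, 1.03 with counts per kb of the longest annotated transcript and 1.02 with posterior mean TPM. TINF2 was 0.608 and 0.570 times ACD, and POT1 was 0.678 and 0.593 times ACD. The RSEM intervals of both of these pairs overlapped, so neither was called separate.

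Only 2 neighbours in the order of mean TPM were separate by this rule: DKC1 was 3.53 times TERF2IP, and TINF2 was 4.23 times TERT. The 8 genes from TERF2IP down to TINF2 formed a chain in which each neighbour overlapped the next in its RSEM interval. Intervals were compared within and across the replicates. For TERF1 with ACD, and for ACD with WRAP53, they overlapped only across replicates, and the TPM values did not overlap. In replicate 1 the intervals of TERF1, ACD and WRAP53 were 49.9 to 63.4, 32.6 to 44.8 and 24.2 to 30.9 TPM. In replicate 2 they were 43.0 to 55.7, 29.4 to 42.1 and 22.6 to 28.9 TPM. With 2 libraries, no test of levels between genes was made.

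The TPM of TERT differed more between the replicates than its counts did. TERT counts, scaled for library size, were 1.04 times as high in replicate 1 (exact interval 0.789 to 1.36), while its TPM was 1.51 times as high. TPM divides the count by a mean length over the transcripts to which RSEM assigned the reads. That length was 2581 nt in replicate 1 and 3668 nt in replicate 2, or 63.9% and 90.8% of the longest annotated TERT transcript of 4039 nt. A shorter length gives a higher TPM for the same count, and the length accounted for a factor of 1.43 in the TERT ratio.

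POT1 behaved alike: counts of 274 and 265 after rounding gave a count ratio of 0.980 (exact interval 0.824 to 1.16), whereas TPM was 1.27 times as high in replicate 1. Its mean length was 1468 and 1855 nt, against a longest annotated transcript of 3950 nt, and the length gave a factor of 1.27. For TINF2, a count ratio of 0.990 went with a TPM ratio of 1.18 and a length factor of 1.17. The POT1 and TINF2 values of replicate 2 lay below their own RSEM intervals. Their posterior mean TPM in that replicate, 26.7 and 25.2, lay within the intervals. A mean length that shifted at least 1.25-fold between the replicates was found in 2 of the 10 genes, TERT and POT1, and in 11.3% of 12961 detected genes with several transcripts. This fold was chosen after the data were seen.

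**Figure D2:**
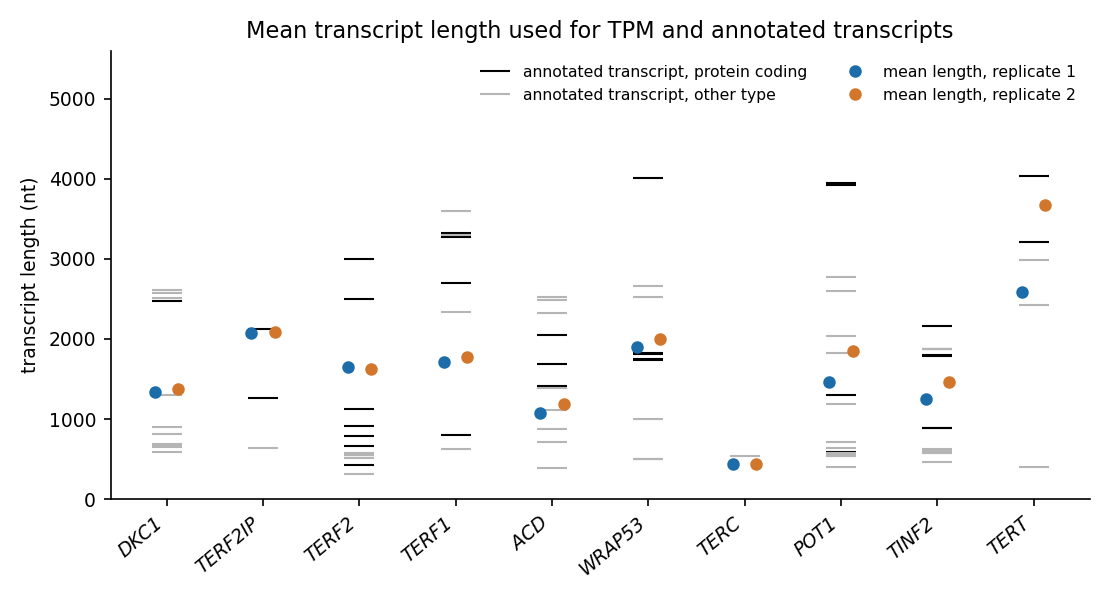
Transcript lengths in nt of the 10 genes: dashes are annotated transcripts (black, protein coding; grey, other types) and points the mean length that RSEM used in each replicate. TERT moved from 2581 to 3668 nt and POT1 from 1468 to 1855 nt between replicates 1 and 2, while TERC was 438 nt in both, below its annotated 541 nt.

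For the other genes the length moved less: the factor was 1.12 for ACD, 1.05 for WRAP53, 1.04 for TERF1, 1.03 for DKC1, 1.01 for TERF2IP, 1.00 for TERC and 0.984 for TERF2. The mean length that RSEM used for TERF2IP was 97.1% and 97.8% of its longest annotated transcript. For POT1 the mean length was 37.2% and 47.0% of the longest. These shares do not measure how much of a transcript the reads covered. TPM was higher in replicate 1 for 8 of the 10 genes, beside 56.4% of all detected genes. The median log2 TPM ratio, replicate 1 over replicate 2, was 0.18 over the 10 genes and 0.04 over detected genes, while the median log2 ratio of scaled counts was −0.0068 and −0.0031.

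**Figure D3:**
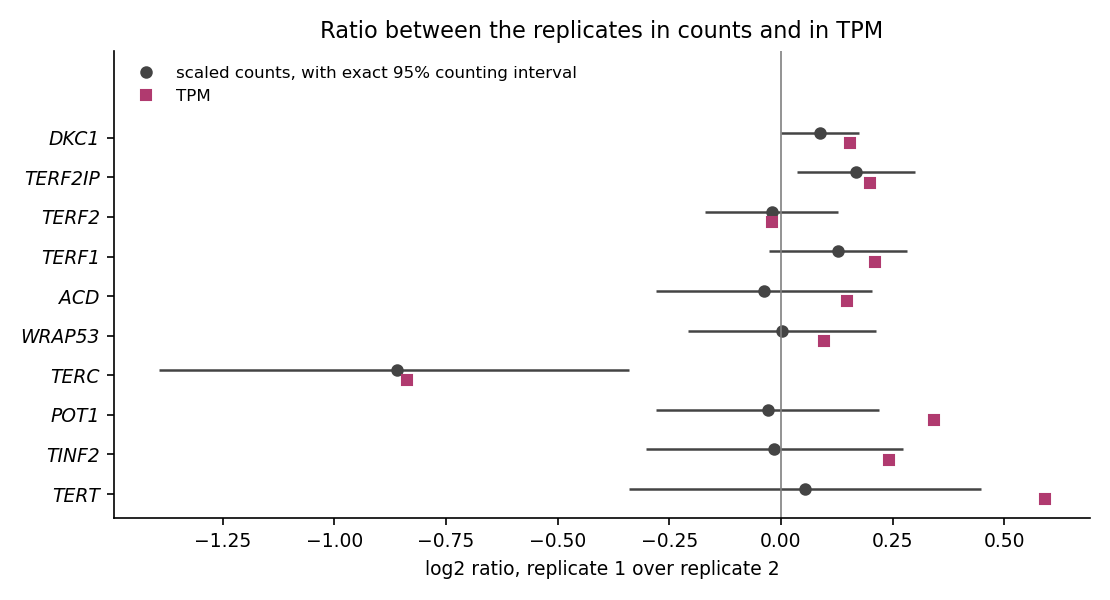
Log2 ratio of replicate 1 over replicate 2 for the 10 genes, in scaled counts (circles, with exact 95% counting intervals) and in TPM (squares). The TPM squares of TERT and POT1 lie to the right of the count intervals, and TERC is the gene far to the left in both units.

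TERC was the only one of the 10 genes whose counts differed between the libraries, at 50 against 86. The count of TERC was 1.82 times as high in replicate 2 after scaling (exact interval 1.27 to 2.63; adjusted p = 0.0250, exact two-sided binomial test with Benjamini-Hochberg adjustment over 17920 genes). The adjusted p of TERC lay between 0.0261 and 0.0807 over 6 alternatives, so the call did not hold in all of them. The same test called 3.88% of the 17920 genes tested and 2.98% of the 2182 lncRNA genes tested. Against that background, 1 of 10 is a single gene. It compares these libraries and says nothing of a condition.

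The other 9 genes did not pass, which does not show that they were equal. TERF2IP was 1.12 times as high in replicate 1 (exact interval 1.02 to 1.23; exact binomial test, adjusted p = 0.167) and DKC1 1.06 times (1.00 to 1.13; adjusted p = 0.375). Both passed at an unadjusted p under 0.05, as did TERC and 2377 genes in all. For WRAP53 (ratio 1.00, interval 0.866 to 1.16) and TERF2 (0.985, interval 0.888 to 1.09), the counting intervals lay within a 1.16-fold change in either direction.

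**Figure D4:**
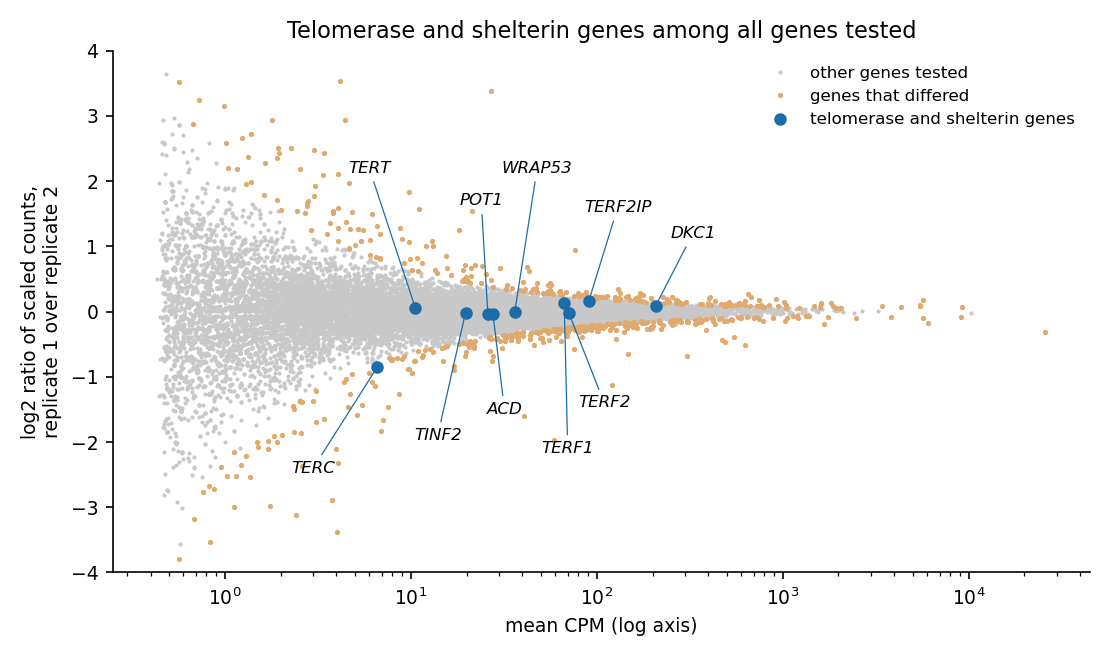
Log2 ratio of scaled counts, replicate 1 over replicate 2, against mean CPM (counts scaled to a fixed library size) on a log axis for the 17920 genes tested; orange genes differed and 124 genes beyond a log2 ratio of 4 lie off the axis. TERC lies among the orange genes at the lower edge, and the other 9 genes lie within the grey cloud.

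How firmly reads can be given to each gene differed. RSEM shares a read that fits several places, so a count that is not whole marks sharing. TERT, TERC, DKC1, TINF2 and ACD had whole counts (within 1e-09) in both replicates. TERT and TERC shared none of their 50-base stretches with another gene in the annotation. DKC1, TINF2 and ACD shared 4.53%, 3.65% and 0.231% of theirs, and the DKC1 counts had a posterior SD of 0.5 and 0.49. The stretches cover the 93.1% of transcripts in the files that had a sequence in the annotation, and this measure was chosen after the data were seen. They covered 5 of 8 TERT transcripts and 1 of 2 TERC transcripts, without the 438 nt one that RSEM used.

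WRAP53 shared most: 23.5% of its 50-base stretches also occur in ENSG00000262251 in reverse, which received 45.8 and 41.4 counts. TINF2 overlaps GMPR2, on the opposite strand, over 957 of 4378 exonic nt (21.9%), and GMPR2 received 578 and 486 counts. No 50-base stretch of TINF2 was found in GMPR2 among the transcripts of the files, and both genes had whole counts with a posterior SD of 0. The sources used here do not say if reads were counted by strand. Reads in the stretches that WRAP53 shares with ENSG00000262251 may therefore not be separable. The posterior SD that RSEM gave was small, at 1.34 and 1.89 counts for WRAP53 and 1.08 and 1.79 for ENSG00000262251.

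TERF1 has 7 processed pseudogenes in the annotation, and 7.97% of its 50-base stretches occur elsewhere, most often in TERF1P5. The pseudogenes took few counts: TERF1P7 had 5.37 and 4.54, TERF1P2 had 0 and 2.05, and the other five had none, beside 744 and 645 for TERF1 after rounding. The posterior SD of the TERF1 count, which describes this sharing, was 2.59 and 2.66 counts. TERF2 shares 98 nt with ENSG00000260371 on the same strand, whose counts of 17.5 and 34.6 had posterior SDs of 9.02 and 10.1. The counts of TERF2 itself, 749 and 720 after rounding, had posterior SDs of only 0.89 and 1.67. POT1 overlaps POT1-AS1 over 111 nt, and that antisense gene received 3 and 6.09 counts. TERF2IP overlaps KARS1 over 176 nt and ACD overlaps CARMIL2 over 58 nt, both on the opposite strand, and the partners received 1759 and 1661 counts and 94 and 87 counts.

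The other genes of the telomere pathway were taken as a list of 30: all were detected, beside the same 27.7% of all genes and 63.7% of protein-coding genes, and their median mean TPM was 29.7. Partners of DKC1 in the H/ACA particle were high. NHP2 stood at 319 ± 4.30 TPM, NOP10 at 133 ± 11.7, GAR1 at 70.6 ± 5.97, and the assembly factors NAF1 and SHQ1 at 36.0 ± 0.615 and 30.6 ± 1.99 (SD, n = 2 each). NHP2 was thus the one H/ACA protein gene above DKC1.

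The genes that process and assemble telomerase RNA ranged from TENT4B, which adds short A tails, at 20.4 TPM, to the ATPase RUVBL1 at 140 TPM. The deadenylase PARN, which trims those tails, stood at 40.6 ± 1.24 TPM, and TGS1, which modifies the cap of TERC, at 36.0 ± 0.707 (SD, n = 2 each). The CST complex, which ends telomerase extension and helps fill in the C-rich strand, had the lowest group median, at 8.10 TPM over 3 genes. CTC1 stood at 20.4 ± 2.32 TPM, STN1 at 7.00 ± 0.346 and TEN1 at 8.10 ± 0.764. STN1 received 65 and 63 counts, and TEN1 53.2 and 58.6, with posterior SDs of 4.51 and 4.43 for TEN1.

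Among the 11 genes of end processing and shelterin partners, mean TPM ranged from 7.28 for SLX4 to 54.1 for RAD50, with a median of 17.3. RIF1, a telomere and replication timing factor, was the one gene of the 30 called, with 3089 and 3270 counts (log2 ratio of scaled counts, replicate 1 over replicate 2, −0.16; exact binomial test, adjusted p = 0.000801). The same test called 3.88% of all genes tested. ATRX and DAXX, which repress telomere lengthening by recombination, stood at 41.7 ± 6.41 and 78.2 ± 3.61 TPM (SD, n = 2 each).

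**Figure D5:**
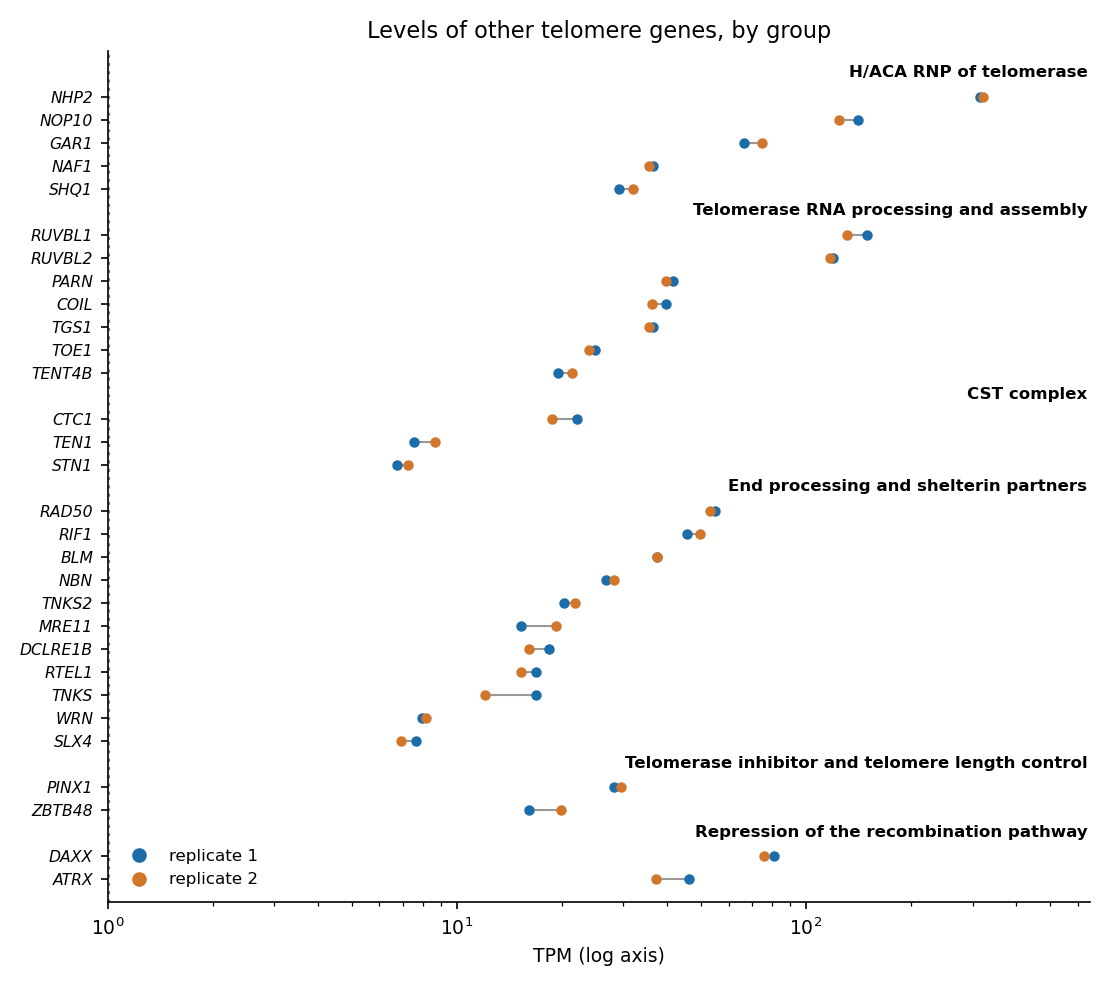
TPM on a log axis of 30 other telomere genes in both replicates, joined by a line, by group and in order of mean TPM. NHP2 (319) is the highest and STN1 the lowest.

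Markers of the labelled tissue were largely absent: 2 of 8 kidney epithelium genes were detected, LRP2 at 9.12 TPM and PAX2 at 3.41 TPM, and CDH16, UMOD and AQP2 were listed at 0 counts. Fibroblast genes reached the threshold in both replicates in 0 of 4 cases, with summed TPM of 1.72 and 2.37. LUM reached it in replicate 2 only, at 0.85 and 1.40 TPM. All 4 proliferation genes were detected, from MKI67 at 98.0 TPM to CCNB1 at 222 TPM. TOP2A, at 3966 and 4082 counts, was the one marker called between the libraries (scaled counts higher in replicate 2; exact binomial test, adjusted p = 0.00931), while its TPM was higher in replicate 1, at 126 against 120.03. Their part in the telomere values was not tested.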

How the data were processed

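RNA of 2 HEK293T libraries was sequenced with 50 nt reads. Per the labels, the submitters' notes name Trimmomatic 0.36, STAR 2.6.1c, RSEM 1.3.1 and hg19/GRCh37, whereas the methods name featureCounts, and the columns are those of RSEM. The authors deposited estimated counts (reads shared among genes they fit), TPM and FPKM (both scaled by length and depth), and the posterior SD and TPM interval bounds as scores. A table of pooled reads was used only as an alternative. Symbols came from GENCODE 44 on GRCh37, which matched 96.1% of identifiers. The TERC sequence is of that annotation and genome.

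Estimated counts were rounded and compared between libraries by an exact two-sided binomial test (scipy 1.17.1) with TMM-scaled sizes (edgeR 4.0.16) and Benjamini-Hochberg adjustment over genes with at least 10 summed counts, called at an adjusted p under 0.05. On simulated data, 146 of 200 genes changed 1.5-fold and 191 of 200 changed 2-fold were recovered. The simulation held counting error only and changed only genes with higher counts. It thus does not cover low counts or further spread between libraries. TPM was compared without a pseudocount. Named genes were the 10 genes, a list of 30 telomere genes, and genes overlapping or copied from the 10. These lists were chosen with earlier results of these data known. Alternatives covered scaling, filters, counts, units and leaving out a replicate. A gene overlap and a list of blood markers are not reported here.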

Additional observations from a re-analysis of the deposited data

How the results depend on the processing

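No paired analysis was possible because the libraries form a single group. All 10 genes were detected under each alternative except a threshold of 5 TPM, where 9 were and TERT was lost, and all 30 telomere genes were detected throughout. The number of genes that differed between the libraries, 696, was 752 with RLE size factors, 704 with total counts and 507 with the filterByExpr filter of edgeR, but 456 with no filter, 448 with posterior mean counts and 71 among genes with whole counts only. Of the 10 genes, 1 differed except with no filter and among genes with whole counts, where 0 did: the adjusted p of TERC was then 0.0807 and 0.0658 at an unchanged unadjusted p of 0.000766, since other genes were tested. With a replicate left out, no test between libraries was possible.

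In the order of levels, 10 of 10 ranks were kept in FPKM and pooled TPM, 4 with posterior mean TPM, 5 with counts per kb of the longest transcript, and 6 to 7 with a replicate left out. The log2 TPM ratios kept their direction, apart from TERF2 to TERF2IP, which lay around 0. TERF1 to TINF2 (1.39) was 1.35 with 1 added to TPM, 1.03 with counts per kb, 1.02 with posterior means, and 1.37 to 1.40 with a replicate left out. TERF2 to TERF2IP (−0.0013) was −0.85 with counts per kb and −0.11 to 0.11 with a replicate left out. TINF2 to ACD (−0.76) was −0.27 and −0.51 with counts per kb and posterior means, and −0.81 to −0.72 with a replicate left out. POT1 to ACD (−0.66) was −0.38 with posterior means and −0.75 to −0.56 with a replicate left out. DKC1 to TERT (5.50) was 4.92 with counts per kb, 4.98 with posterior means, and 5.28 to 5.72 with a replicate left out. The ratios in counts per kb use the same counts and differ from TPM only in the length that divides them. The cause of the other moves was not tested. Log2 levels relative to the median of the 10 genes moved by more than their spread for 8 genes with counts per kb. They did so for 7 genes without replicate 1, 5 with posterior means, 1 without replicate 2 and 1 in pooled TPM. Depth limits TERC most, at 50 and 86 counts, and then TERT, at 115 and 105.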
